A study of Mus musculus with 5 samples.

Results

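The peroxisome proliferator-activated receptors (PPARs) and the proteins they work with were followed in total dorsal epidermis of wildtype C57BL/6 male mice. The set held 8 genes of the 21667 in the table: the receptors Pparg, Ppara and Ppard, their dimer partners Rxra and Rxrb, the coactivators Ppargc1a and Ppargc1b, and the corepressor Ncor1. They were picked by gene name, and their transcripts were summed per gene. RNA was sequenced from 5 libraries at postnatal day 49: 2 from skin given topical 10 uM forskolin, which activates adenylyl cyclase, 2 from skin given topical 1.325 mM cAMP, the second messenger that adenylyl cyclase makes, and 1 control library labelled untreated. Treatments were given 3 times within 5 days, with the compounds in DMSO and a lotion vehicle (PLO). Whether vehicle was also put on the control skin is not stated. Nor is it stated that replicate libraries derive from different animals, so their variation may be in part technical. The p-values rest on the spread within the 2 forskolin and the 2 cAMP libraries and on a trend over all genes. The lone control adds no spread of its own.

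PPARs are nuclear receptors that bind fatty acids and their derivatives. Each binds DNA as a dimer with a retinoid X receptor (RXR) and then recruits coactivators of the PGC-1 type or, without ligand, corepressors such as NCoR1. In mouse skin, PPAR gamma is known for its part in the differentiation of sebaceous gland cells, PPAR delta is the widespread form of keratinocytes, and PPAR alpha is best known as the regulator of fatty acid oxidation in liver. cAMP acts on transcription through CREB, and CREB is known to raise Ppargc1a in mouse liver.

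The control library differed from the treated ones in its makeup, and this touched every comparison with it. Mitochondrially encoded genes held 69.3% of its deposited CPM (counts scaled to library size), against 43.2% to 58.1% in the treated libraries. Nuclear genes that are neither pseudogenes nor ribosomal RNA held 7.90%, against 25.95% to 37.98%, and 9791 genes reached 1 CPM, against 12867 to 13551. The median tested gene was higher by 1.69 (log2) with forskolin and by 1.66 with cAMP as deposited. When libraries were instead set level by their typical gene (median-of-ratios size factors), those medians were 0.18 and 0.16. Values so scaled are called rescaled below, and a change in them is a change relative to the typical gene.

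Pparg, the receptor of fat and sebaceous gland cells, stood out from the other members. Its deposited level was 20.6 and 19.7 CPM in the forskolin libraries, 55.0 and 40.9 CPM in the cAMP libraries, and it was listed at 0 in the control library. All 4 treated libraries were above the control. Both cAMP values were above both forskolin values, but Pparg did not pass the test between the compounds (limma, adjusted p = 0.443 as deposited and 0.131 rescaled). Rescaled, Pparg was at 14.5 and 14.98 CPM with forskolin and 33.3 and 36.6 CPM with cAMP. At the mean rescaled level of the treated libraries, the control would have held 389.3 reads of Pparg, if the table's smallest value stands for 0.0001 read. Such a gap was not unique to Pparg: 95 of 7600 genes (1.25%) with at least 100 expected reads were under 1 read in the control, against at most 0.199% of such genes in a treated library. Since the control is a lone library, no spread around its 0 could be measured. In bulk tissue, fewer cells of a type and less RNA per cell cannot be told apart.

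Pparg lies on the plus strand of chromosome 6 (GRCm38, chr6:115361221-115490401; ENSMUSG00000000440), and the table lists 2 protein-coding transcripts with separate starts. ENSMUST00000171644, which starts upstream, was at 2.56 and 15.1 CPM in the forskolin libraries and 36.4 and 23.5 CPM in the cAMP libraries. ENSMUST00000000450, which starts downstream at position 115422066, was at 18.03 and 4.58 CPM with forskolin and 18.7 and 17.5 CPM with cAMP. Both were listed at 0 in the control. The downstream transcript took 87.5% and 23.2% of Pparg in the forskolin libraries, against 33.9% and 42.7% in the cAMP libraries. The forskolin libraries thus lay on either side of the cAMP libraries, while their gene totals were within 1 CPM of each other. The table's split between transcripts that share most of their exons is an estimate, and the totals are the firmer values.

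**Figure D1:**
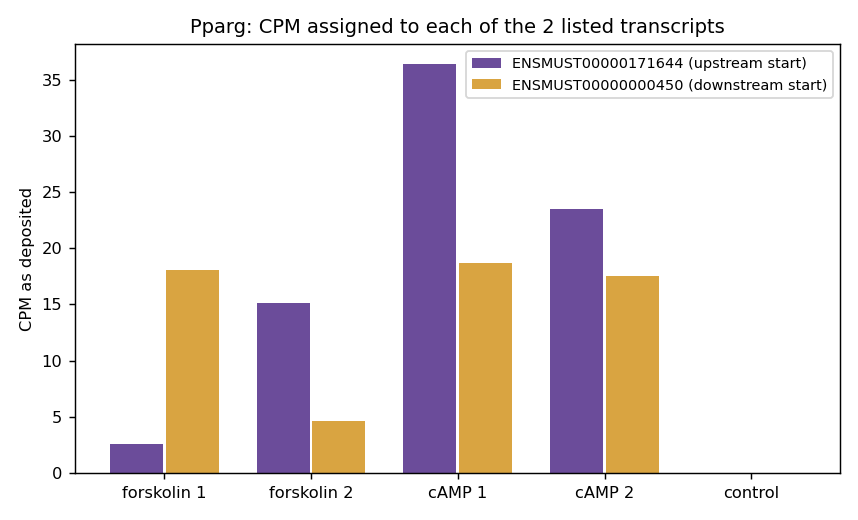
Deposited CPM (vertical axis) assigned to the 2 listed Pparg transcripts in each library; each bar is 1 transcript in 1 library. The downstream transcript is the taller bar in forskolin 1 (18.03 CPM) and the shorter one in the other treated libraries, and both are at 0 in the control.

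The sequences before the Pparg starts are shown because both compounds feed the CREB pathway and because the 2 starts differ in base content. They are the 250 bases before a RefSeq start (GRCm38.p6, plus strand), in lower case, with the receptor core motif AGGTCA in capitals where present.
Pparg upstream, chr6:115360894-115361143: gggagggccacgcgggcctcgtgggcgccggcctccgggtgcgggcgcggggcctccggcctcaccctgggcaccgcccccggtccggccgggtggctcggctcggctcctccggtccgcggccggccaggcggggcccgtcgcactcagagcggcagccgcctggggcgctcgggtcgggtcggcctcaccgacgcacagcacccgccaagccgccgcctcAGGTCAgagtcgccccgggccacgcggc
Pparg downstream, chr6:115421816-115422065: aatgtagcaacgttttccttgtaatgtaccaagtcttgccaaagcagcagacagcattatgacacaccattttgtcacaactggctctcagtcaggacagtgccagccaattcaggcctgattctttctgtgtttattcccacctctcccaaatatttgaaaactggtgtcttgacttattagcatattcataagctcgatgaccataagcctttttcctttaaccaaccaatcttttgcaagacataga
The upstream stretch was 82.4% G or C and held AGGTCA starting 28 bases before the start. The downstream stretch was 40.8% G or C and held none of the motifs searched, on either strand.

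Ppard, the receptor expressed widely in keratinocytes, was the other receptor that rose against the control under both scalings. Its deposited level was 24.5 and 30.02 CPM with forskolin, 25.5 and 10.9 CPM with cAMP, and 1.44 CPM in the control. Every treated library was above the control, cAMP replicate 2 was the lowest of the 4, and cAMP replicate 1 lay between the forskolin libraries. Rescaled levels were 17.3 and 22.8 CPM with forskolin, 15.4 and 9.80 CPM with cAMP, and 4.53 CPM in the control, again with every treated library above it. The ratio of the forskolin mean to the control was 19.0 as deposited and 4.42 rescaled. For cAMP the ratios were 12.7 and 2.78. Ppard lies on the plus strand of chromosome 17 (chr17:28232754-28301469; ENSMUSG00000002250). ENSMUST00000002320, a protein-coding transcript, held 21.4 and 27.2 CPM with forskolin, 25.0 and 8.81 CPM with cAMP, and 1.17 CPM in the control. The stretch before its RefSeq start is shown as that of the second receptor that rose, and it held none of the motifs searched.
Ppard, chr17:28232504-28232753: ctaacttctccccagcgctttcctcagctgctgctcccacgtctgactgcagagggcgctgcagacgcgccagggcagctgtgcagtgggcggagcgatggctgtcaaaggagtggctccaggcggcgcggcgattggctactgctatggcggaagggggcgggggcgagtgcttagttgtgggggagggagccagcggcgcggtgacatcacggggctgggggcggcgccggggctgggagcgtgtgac

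Ppara, the receptor named for peroxisomes and fatty acid oxidation, was at a low level in every library. It was at 0.660 and 6.64 CPM in the forskolin libraries, 3.97 and 5.11 CPM in the cAMP libraries and 1.11 CPM in the control. The forskolin libraries were the lowest and the highest of all 5, so they spanned both other groups. The gene is on the plus strand of chromosome 15 (chr15:85735564-85802819; ENSMUSG00000022383).

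The RXR partners were near the control after rescaling. Rxra, the main RXR of skin and liver, was at 70.0 and 109.7 CPM with forskolin, 115.3 and 80.0 CPM with cAMP and 20.8 CPM in the control as deposited. Rescaled, it was at 49.3 and 83.4 CPM with forskolin, 69.8 and 71.6 CPM with cAMP and 65.5 CPM in the control. As deposited all treated libraries were above the control, while rescaled the control lay between the forskolin libraries and slightly below both cAMP libraries. Rxrb, a widely expressed RXR, was at 29.4 and 33.3 CPM with forskolin, 35.1 and 18.2 CPM with cAMP and 6.46 CPM in the control. Rescaled it was at 20.7 and 25.3 CPM with forskolin, 21.2 and 16.3 CPM with cAMP and 20.4 CPM in the control, so the control lay inside the cAMP pair and just under the forskolin pair. Rxra lies on chromosome 2 (chr2:27677201-27762957) and Rxrb on chromosome 17 (chr17:34031812-34038393), both on the plus strand. Rxrg, the third RXR gene, was not listed under that name, so it was not analysed.

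The PGC-1 coactivators were at low levels. Ppargc1a, a coactivator of mitochondrial biogenesis and a known CREB target in mouse liver, was at 0.742 and 1.69 CPM with forskolin, 0.763 and 1.55 CPM with cAMP and 1.28 CPM in the control. The control lay inside both treated pairs as deposited. Rescaled, it was at 0.522 and 1.29 CPM with forskolin, 0.462 and 1.39 CPM with cAMP and 4.02 CPM in the control, so that all 4 treated libraries were below the control. The control value rests on 63 reads if the offset reading above holds. Ppargc1a lies on the minus strand of chromosome 5 (chr5:51454250-51567704; ENSMUSG00000029167). Its protein-coding transcript ENSMUST00000132734 starts at position 51553922.

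Ppargc1b, the related coactivator (ENSMUSG00000033871), was at 3.71 and 7.09 CPM with forskolin, 4.76 and 4.80 CPM with cAMP and 0.790 CPM in the control. Rescaled, every treated library (2.61 and 5.39 CPM with forskolin, 2.88 and 4.30 CPM with cAMP) was above the control (2.49 CPM), by a small margin in the lowest.

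Ncor1, the corepressor that recruits histone deacetylase to unliganded receptors, was at 61.1 and 107.5 CPM with forskolin, 57.6 and 52.0 CPM with cAMP and 13.95 CPM in the control. Both forskolin libraries were above both cAMP libraries, and all were above the control. Rescaled, it was at 43.0 and 81.8 CPM with forskolin, 34.9 and 46.6 CPM with cAMP and 44.0 CPM in the control, so the control lay inside both treated pairs and the pairs overlapped. Ncor1 lies on the minus strand of chromosome 11 (chr11:62316426-62458541; ENSMUSG00000018501) and had 23 listed transcripts. Transcripts with a retained intron held 17.9% and 20.2% of it in the forskolin libraries, 7.46% and 4.63% in the cAMP libraries and 8.87% in the control. Both forskolin shares were above the other 3, on the same uncertain split between transcripts. They came in part from different transcripts. ENSMUST00000101068 was at 1.6e-05 CPM in forskolin replicate 1 and 8.37 CPM in replicate 2, while ENSMUST00000161767 was at 4.07 and 4.32 CPM. How many of all genes show such a gap was not counted, so it is not a result in itself.

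**Figure D2:**
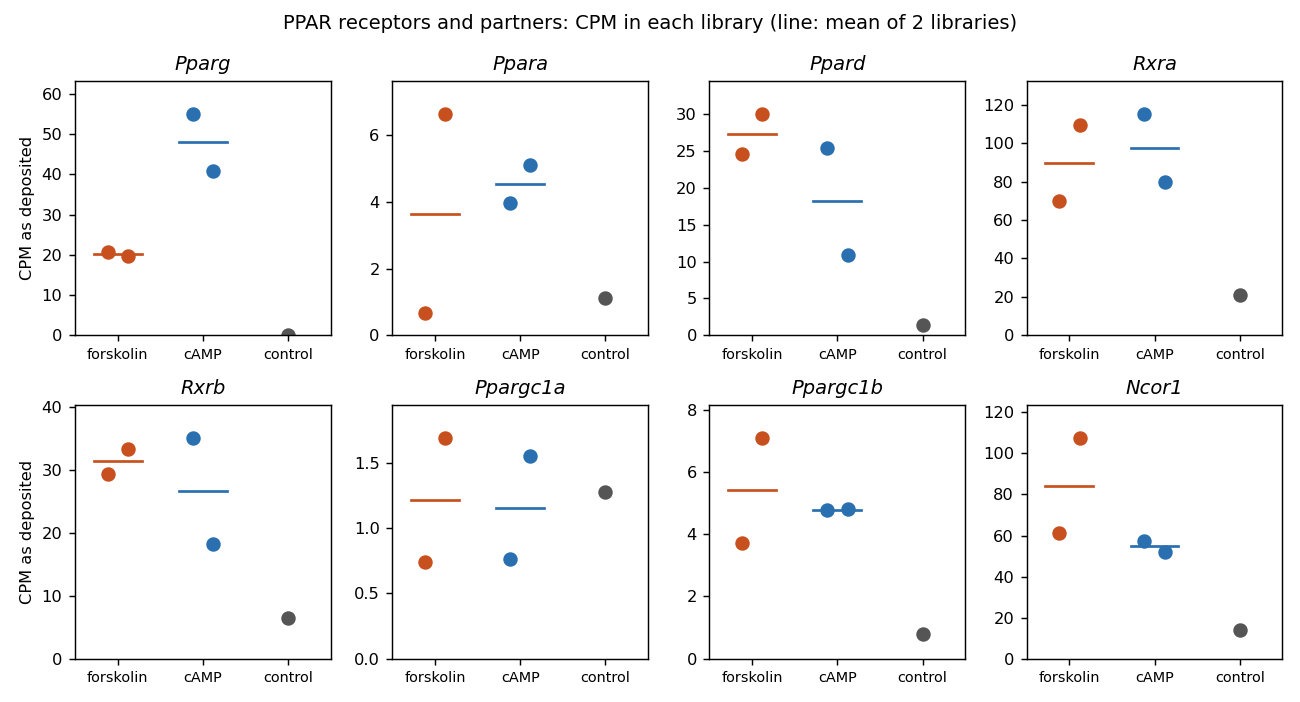
Deposited CPM (vertical axes, each from 0) of the 8 genes in each library; points are libraries and lines the means of 2 libraries. Pparg is at 0 in the control and was not called between the compounds, while Ppargc1a is the gene whose control point, at 1.28 CPM, lies between the treated ones in both groups.

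Forskolin was set against the control to ask what raising cAMP through adenylyl cyclase did to the receptors and partners. As deposited, 6 of the 8 members, all but Ppara and Ppargc1a, were called higher and none lower by limma (adjusted p under 0.05), where 66.7% of all tested genes were called, 66.3% higher and 0.341% lower. The share of members was thus near that of all genes. Rescaled, Pparg and Ppard were the members called, both higher, where 21.8% of tested genes were called, 14.4% higher and 7.39% lower. Without forskolin replicate 2, 4 members were called as deposited, since Rxra and Ppargc1b no longer passed. With no filter on low genes Ppargc1b did not pass either (adjusted p = 0.0672). Pparg was higher by 3.98 ± 0.40 (SE, limma, adjusted p = 1.55e-05) on the rescaled log2(CPM + 1) scale, a value that depends on the added 1 because the control is at 0. Ppard was higher by 1.91 ± 0.42 (limma, adjusted p = 0.00443). The rescaled change of Ppargc1a was -1.43 ± 0.55, with an interval of -2.58 to -0.28 (95%) and an adjusted p of 0.0673 by limma, so it did not pass. The other 5 rescaled changes ran from -0.60 (Ppara) to 0.46 (Ppargc1b), with adjusted p between 0.479 and 0.963. As deposited, Ppara was at 0.75 ± 0.63 (adjusted p = 0.274), with the opposite sign.

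Topical cAMP was set against the same control library, so the 2 comparisons with the control are not independent of each other. As deposited, 7 of the 8 members were called higher and none lower, where 65.6% of tested genes were called, 65.1% higher and 0.436% lower, and Ppargc1a was the one not called. Ppara passed narrowly as deposited, at 1.38 ± 0.63 (limma, adjusted p = 0.0460), did not pass when any single treated library was left out or with either other pseudocount, and was at -0.05 ± 0.65 rescaled. Ppargc1b, at 1.69 (adjusted p = 0.0118), did not pass with no filter on low genes (adjusted p = 0.0761) or with a pseudocount of 5 (adjusted p = 0.0603), settings that left 5 members called. Rescaled, Pparg and Ppard were again the members called, both higher, where 22.6% of tested genes were called, 14.8% higher and 7.78% lower. Pparg was higher by 5.17 ± 0.40 (limma, adjusted p = 2.52e-07). Ppard was higher by 1.27 ± 0.42 (limma, adjusted p = 0.0376), and without cAMP replicate 1 its change was 0.96 ± 0.45 and did not pass (adjusted p = 0.167). Ppargc1a was at -1.43 ± 0.55 (limma, adjusted p = 0.0678). The remaining rescaled changes lay between -0.12 (Rxrb and Ncor1) and 0.38 (Ppargc1b).

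**Figure D3:**
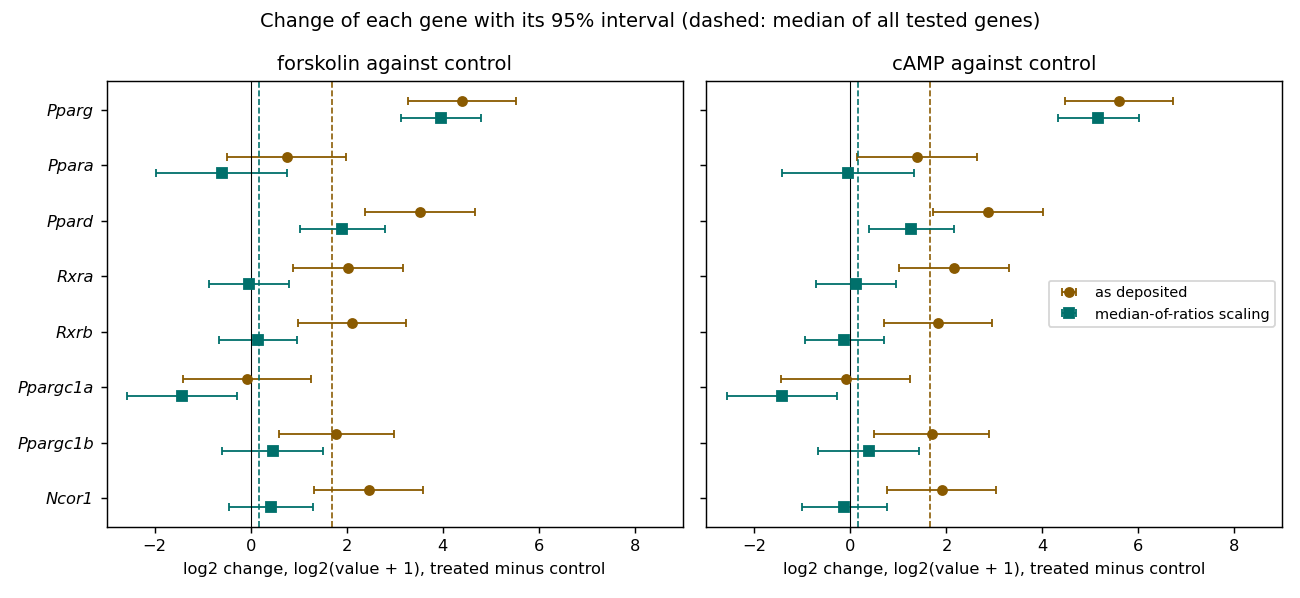
Log2 change of each gene with its 95% interval, forskolin against control (left) and cAMP against control (right), as deposited (circles) and rescaled (squares); dashed lines mark the median of all tested genes under each scaling. Pparg and Ppard lie to the right of the dashed line under both scalings, while Rxra, Rxrb and Ncor1 move with it.

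As deposited, both forskolin libraries were above the control for 6 of the 8 members, where 92.9% of tested genes showed this, and both cAMP libraries for 7, where 91.0% did. Rescaled, both forskolin libraries were above the control for 4 of the 8 members (Pparg, Ppard, Rxrb and Ppargc1b), where 49.7% of tested genes showed this. Both cAMP libraries were above it for 4 members (Pparg, Ppard, Rxra and Ppargc1b), where 47.5% of tested genes did. These member counts are near the background.

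Setting each member against Rxra in the same library gave values that need no size factor but depend on Rxra. Rescaled, Rxra changed by -0.03 with forskolin and 0.11 with cAMP, so these ratios largely repeat the rescaled values. Pparg was 29.4% and 17.96% of Rxra with forskolin, 47.7% and 51.2% with cAMP, and under 0.292% in the control, the level of 3 reads. Ppard was 35.0% and 27.4% with forskolin, 22.1% and 13.7% with cAMP and 6.92% in the control. These 2 receptors were above the control in every treated library. Both cAMP libraries had the higher Pparg share and both forskolin libraries the higher Ppard share, but neither gene was called between the compounds. Ppargc1a went the other way from both, at 1.06% and 1.54% with forskolin, 0.662% and 1.94% with cAMP and 6.14% in the control. Rxrb was 42.0% and 30.4% with forskolin, 30.4% and 22.7% with cAMP and 31.1% in the control, with the control inside the forskolin pair. Ncor1 was 87.3% and 98.1% with forskolin, 49.9% and 65.0% with cAMP and 67.2% in the control, so the control lay between the compounds.

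**Figure D4:**
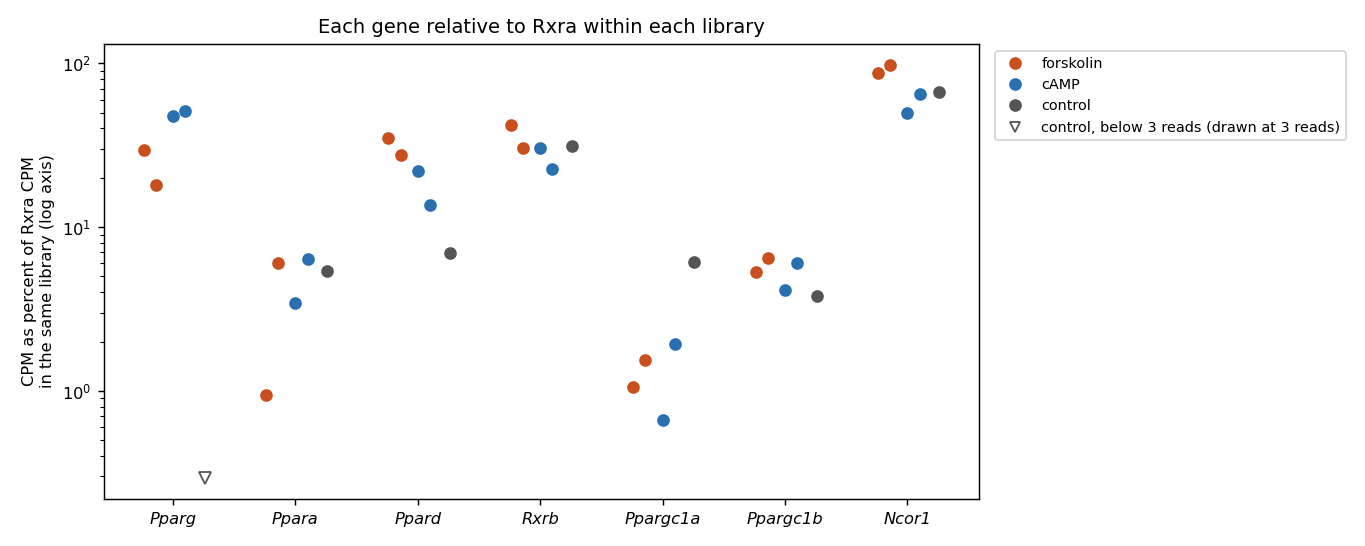
CPM of each gene as a percent of Rxra CPM in the same library (log axis); points are libraries, and the open triangle is Pparg in the control, drawn at the level of 3 reads. Pparg and Ppard are above the control in all 4 treated libraries and Ppargc1a is below it in all 4.

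Forskolin and cAMP were set against each other to ask whether the route to cAMP mattered; the doses are of different compounds and cannot be matched. No member was called, where 0.378% of tested genes were called as deposited (0.189% higher and 0.189% lower) and 0.349% rescaled (0.0944% higher and 0.254% lower). Over all genes limma called 52 as deposited and 48 rescaled, with 937 and 1546 at an unadjusted p under 0.05. Pparg had the clearest difference of the 8. It was lower with forskolin by a log2 change of -1.197 ± 0.47 as deposited, with a 95% interval of -2.12 to -0.27 and an unadjusted p of 0.0112 (limma, adjusted p = 0.443). Rescaled, the change was -1.19 ± 0.32 with an interval of -1.87 to -0.51 and an unadjusted p of 0.00175 (limma, adjusted p = 0.131). The deposited cAMP mean was 2.38 times the forskolin mean. How many of all tested genes have pairs without overlap was not counted, so the lack of overlap for Pparg is not a result in itself. Ppard was at 0.66 as deposited, with an interval of -0.27 to 1.59. Ncor1 was at 0.56 with an interval of -0.37 to 1.49, and Ppara at -0.63 with an interval of -1.65 to 0.39. For Rxra the interval ran from -1.07 to 0.81, for Rxrb from -0.63 to 1.22, for Ppargc1a from -1.06 to 1.12 and for Ppargc1b from -0.89 to 1.08. A 2-fold difference in at least 1 direction lay inside each of these intervals, and in both directions only for Ppargc1a, so they do not show that the compounds acted alike.

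Levels of different genes were compared per length of transcript (CPM per kb). Ncor1 ranked first in every library, at 37.9 and 59.1 CPM per kb with forskolin, 28.4 and 29.97 with cAMP and 9.87 in the control. The value of Ncor1 sums 23 listed transcripts, each divided by its own length, so short ones weigh most for their CPM. ENSMUST00000159315, of 716 bases, was at 10.2 CPM in forskolin replicate 1 and 8.92 CPM in cAMP replicate 1. In CPM not divided by length, Rxra was above Ncor1 in every library. The first place of Ncor1 thus depends on the uncertain split between transcripts. Pparg ranked second in both cAMP libraries (27.7 and 20.9 CPM per kb), just ahead of Rxra (23.5 and 16.3), and at place 4 and place 5 in the forskolin libraries (11.4 and 9.71). In the control Pparg ranked last. Rxra and Rxrb exchanged places between the forskolin libraries, as did Pparg and Ppard, so the order within each of these pairs was not fixed. Ppargc1a ranked last in all 4 treated libraries, at 0.143 to 0.279 CPM per kb.

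Genes whose profile over the 5 libraries was closest to that of each member were found by the root mean square difference of log2(CPM + 1) values centred per gene, among 6429 genes. The 5 closest to Pparg were Pdss1 (0.08), Fabp5 (0.15), Ppa1 (0.22), Adck4 (0.25) and Amacr (0.29), where the median gene was at 1.34. Fabp5, the epidermal fatty acid-binding protein, was at 171.5 and 157.5 CPM with forskolin, 441.3 and 263.3 CPM with cAMP and 5.46 CPM in the control. Pdss1, a subunit of the enzyme that makes the side chain of ubiquinone, was at 37.2 and 40.5 CPM with forskolin, 109.9 and 86.5 CPM with cAMP and 1.05 CPM in the control. Their likeness to Pparg is what chose them. Amacr was, like Pparg, listed at 0 in the control.

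The closest profiles of the other members were as follows. Ppard was nearest to Selplg, Plekha6 and Irf2bp2, at 0.05 to 0.07 with a median gene at 0.68. Rxra was nearest to Pik3r2, Sprr1a and Kif1c (0.07 to 0.08), and Rxrb to Sesn2, Zfp516 and Usp4 (0.03 to 0.04), with median genes at 0.45 and 0.42. Ncor1 was nearest to Iqgap2, Tnrc6c and Spn (0.07 to 0.11), and Ppargc1b to Pard3, Sh3pxd2a and Cux1 (0.06 to 0.08). Ppara (nearest to Lrch4, Aebp1 and Phospho1, at 0.23 to 0.44) had no profile as near, and mt-Nd5 and mt-Nd4l (0.29 and 0.30) were among the closest to Ppargc1a. The profile of Ppargc1a thus came near that of mitochondrially encoded genes, which held a larger share in the control.

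Known PPAR targets of lipid uptake and storage that passed the test against the control were all higher. Of 19 tested genes, rescaled, 6 were called higher with forskolin and 13 with cAMP, and none lower, with median changes of 1.13 and 2.02 beside 0.18 and 0.16 for all tested genes. Among all tested genes the shares called higher were 14.4% with forskolin and 14.8% with cAMP. Lpl, the lipase that releases fatty acids from lipoproteins, was at 42.8 and 71.6 CPM with forskolin, 196.2 and 206.7 CPM with cAMP and 2.167 CPM in the control. Its rescaled change was 2.41 ± 0.42 with forskolin (limma, adjusted p = 0.000936) and 4.25 ± 0.42 with cAMP (adjusted p = 6.86e-06). The lipid droplet coat gene Plin2 rose by 1.52 ± 0.42 with forskolin (adjusted p = 0.0170) and 2.90 ± 0.42 with cAMP (adjusted p = 0.000149). The fatty acid transporter Cd36 rose with cAMP (2.02 ± 0.42, adjusted p = 0.00249), and was at 0.47 ± 0.42 with forskolin (adjusted p = 0.431). Fabp4, the adipocyte binding protein, was at 1.66 and 1.10 CPM with forskolin, 1.51 and 4.48 CPM with cAMP and 1.13 CPM in the control, and was not called; Plin4 was not called rescaled either. Between the compounds, 2 genes were called lower with forskolin after rescaling: Lpl (-1.85 ± 0.35, adjusted p = 0.0322) and Cidea (-1.50 ± 0.31, adjusted p = 0.0436), a lipid droplet protein picked out after its values were seen.

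The called PPAR targets of fatty acid oxidation were also all higher, with more calls for cAMP than for forskolin. Of 25 tested genes, rescaled, 4 were called higher with forskolin and 14 with cAMP, and none lower, with medians of 0.47 and 1.21. Over all tested genes 14.4% were called higher with forskolin and 14.8% with cAMP, so the forskolin count is near the background. The mitochondrial acyl-CoA dehydrogenases Acadm, Acadl and Acadvl, which start the oxidation of chains of different length, rose by 1.10 ± 0.38, 1.84 ± 0.40 and 1.91 ± 0.40 with cAMP (limma, adjusted p = 0.0448, 0.00325 and 0.00259). With forskolin the same genes were at 0.16, 0.85 and 0.92 and were not called. Cpt1a, which admits fatty acids to mitochondria, was at 25.9 and 34.9 CPM with forskolin, 31.0 and 26.2 CPM with cAMP and 12.3 CPM in the control, and was not called rescaled in either comparison. Cpt2, its partner enzyme, was at 9.71 and 13.3 CPM with forskolin, 28.4 and 16.9 CPM with cAMP and 0.0327 CPM in the control, under the level of 3 reads. No gene of this list was called between the compounds, where the list's rescaled median was -0.83 beside 0.02 for all genes.

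**Figure D5:**
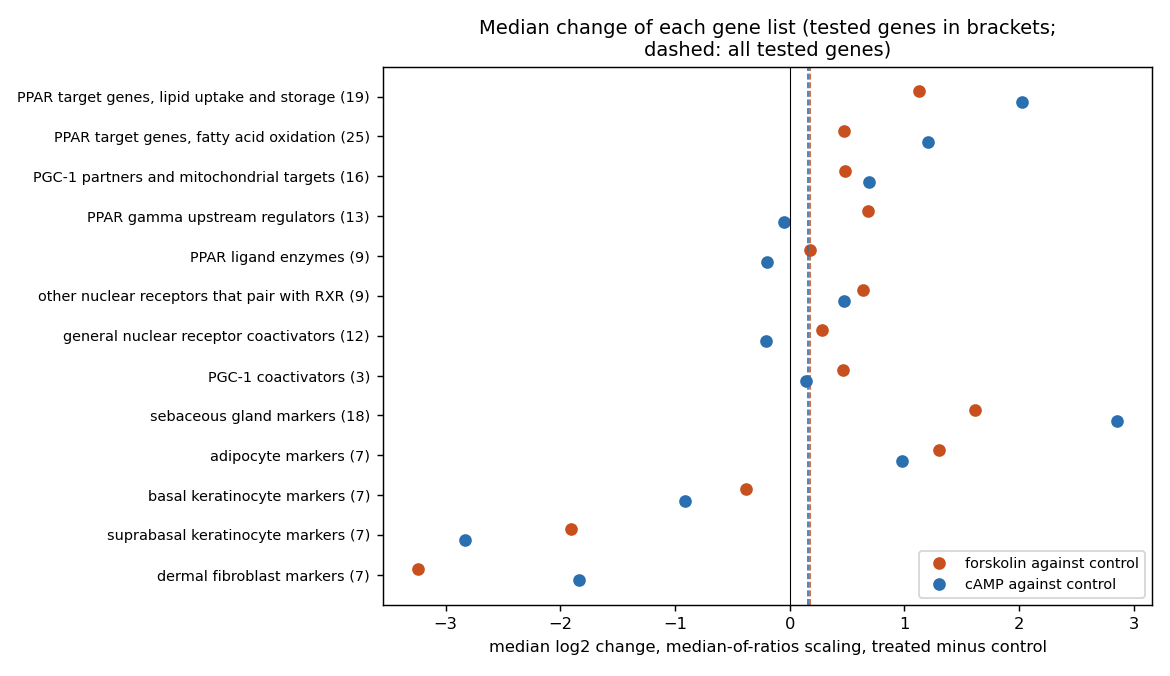
Median rescaled log2 change of the gene lists shown, forskolin against control and cAMP against control (horizontal axis); the number of tested genes is in brackets and dashed lines mark all tested genes. Both lists of PPAR targets and the sebaceous gland markers lie to the right of the dashed lines, and the keratinocyte and fibroblast markers lie to the left.

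Markers of sebaceous gland cells moved with Pparg. Their summed level over 18 genes was 1787 and 2875 CPM with forskolin, 5896 and 4483 CPM with cAMP and 199.6 CPM in the control. As deposited the groups were in the same order as for Pparg, while the forskolin libraries were in the opposite order to each other. Rescaled sums were 1257 and 2186 with forskolin, 3570 and 4013 with cAMP and 629.6 in the control. On that scale every library had the same place in the order as for Pparg. Of the 18, rescaled, 12 were called higher with forskolin and 1, Scd3, lower, and 14 were called higher with cAMP. Of all tested genes, 14.4% were called higher and 7.39% lower with forskolin, and 14.8% were called higher with cAMP. Acot5, Cyp2g1 and Rdh9 were under 1 read in the control, as Pparg was, while Elovl3, a fatty acid elongase of sebocytes, was at 69.4 and 117.2 CPM with forskolin, 431.7 and 284.7 CPM with cAMP and 6.74 CPM in the control. Between the compounds Elovl3, Mgst1, Cidea and Cyp2g1 were called lower with forskolin after rescaling. Cidea and Plin2 are on both the target list and the sebaceous list, so these lists are not independent. The part of a changed share of sebaceous cells in the levels of Pparg and its targets was not tested.

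Markers of other cell types gave mixed values. For the rescaled counts below, 14.4% of all tested genes were called higher and 7.39% lower with forskolin. With cAMP these shares were 14.8% and 7.78%. Adipocyte markers, 11 of them listed, summed to 47.2 and 51.4 CPM with forskolin, 73.6 and 76.0 CPM with cAMP and 13.7 CPM in the control, or rescaled 33.2 and 39.1 with forskolin, 44.6 and 68.0 with cAMP and 43.1 in the control. Of 7 tested, rescaled, 3 were called higher and 2 lower with forskolin, and 3 higher and 1 lower with cAMP, with medians of 1.30 and 0.98. The higher ones were Adig, Adrb3 and Pnpla3 with forskolin and Adig, Adrb3 and Cidec with cAMP, and the lower ones were Cfd and Car3 with forskolin and Cfd with cAMP. The hormone genes that define adipocytes were near 0: Adipoq was at most 0.907 CPM in any library and Lep at most 0.406 CPM. Of 7 tested suprabasal keratinocyte markers, rescaled, 4 were called lower and 1 higher with forskolin and 5 lower with cAMP, and of 7 tested basal markers none was called with forskolin and 3 were called lower with cAMP. The dermal fibroblast sum was 27.3 and 228.7 CPM with forskolin, 134.9 and 306.6 CPM with cAMP and 185.0 CPM in the control, and as deposited the control lay inside both treated pairs. Rescaled, the fibroblast sum was 19.2 and 173.9 with forskolin, 81.7 and 274.5 with cAMP and 583.4 in the control, so all 4 treated libraries were below the control. Of 7 tested fibroblast markers, rescaled, 5 were called lower with forskolin and 2 with cAMP, with medians of -3.24 and -1.84. The part of these cell types in the members' values was not tested.

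The changes in this paragraph are rescaled unless said otherwise. Of 12 general coactivators of nuclear receptors, none was called with cAMP and 1 with forskolin, where 22.6% and 21.8% of all tested genes were called. The 1 was Ncoa4, which fell by 1.73 on the log2 scale (limma, adjusted p = 0.0263). Ncoa1, Ncoa2, Ncoa3, Ncoa6 and Med1 were not called. As deposited, 8 of the 12 were called higher with cAMP and 9 with forskolin. The corepressor complex is not reported as a list. Given here are 2 of its subunits that passed with cAMP, which do not stand for the whole complex. The deacetylase Hdac3 rose with cAMP (1.65 ± 0.37, limma, adjusted p = 0.00434) and was at 0.93 ± 0.37 with forskolin (adjusted p = 0.0767). Tbl1xr1, which exchanges corepressors for coactivators, fell by 1.21 with cAMP (adjusted p = 0.0359) and was at -1.06 ± 0.40 with forskolin (adjusted p = 0.0643). Among 3 PGC-1 coactivators none was called rescaled in either comparison, while 2 were called higher in each as deposited. Pprc1, the third of the family, was at 0.97 ± 0.39 with forskolin (limma, adjusted p = 0.0806) and 0.14 ± 0.39 with cAMP (adjusted p = 0.814), rescaled.

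Of 16 tested partners and targets of PGC-1, rescaled, 3 were called higher and 1 lower with forskolin, and 5 higher and 1 lower with cAMP. The medians were 0.48 and 0.69. Over all tested genes 21.8% were called with forskolin and 22.6% with cAMP, so the forskolin count is near the background. Esrra, the orphan receptor that works with PGC-1, rose by 1.33 ± 0.41 with forskolin (limma, adjusted p = 0.0288) and 1.62 ± 0.41 with cAMP (adjusted p = 0.00950). Tfb1m, a mitochondrial ribosomal RNA methyltransferase, fell by 2.54 with forskolin (adjusted p = 0.00311) and by 1.84 with cAMP (adjusted p = 0.0190). Among 9 tested receptors that also pair with RXR, rescaled, forskolin had 2 called higher, Nr4a1 and Nr4a2, and cAMP had Nr1h3 higher and Rara lower. Rara, a retinoic acid receptor, was at 21.5 and 29.4 CPM with forskolin, 20.9 and 7.58 CPM with cAMP and 7.98 CPM in the control. Vdr, Rarg, Thra and Nr1h2 were not called rescaled. Nr4a2 was the receptor called between the compounds as deposited (2.28 ± 0.54, adjusted p = 0.0137), at 16.2 and 2.94 CPM with forskolin, 0.910 and 0.497 CPM with cAMP and 0.0203 CPM in the control; it was picked out after its values were seen and was not called between the compounds after rescaling.

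Factors known to act upstream of Pparg gave mixed values. Of 13 tested, rescaled, 3 were called higher and 1 lower with forskolin, and 2 higher and 3 lower with cAMP, where 21.8% and 22.6% of all tested genes were called. The medians were 0.68 and -0.05. Cebpb, which induces Pparg in fat cell differentiation, rose by 2.69 ± 0.59 with forskolin (limma, adjusted p = 0.00445) and 2.37 ± 0.59 with cAMP (adjusted p = 0.00859). It was at 30.5 and 136.7 CPM with forskolin, 67.8 and 39.2 CPM with cAMP and 2.08 CPM in the control, so the forskolin libraries lay on either side of the cAMP pair. Klf4 and Klf5, epithelial factors, fell by 1.64 and 2.44 with cAMP (adjusted p = 0.00789 and 0.000852), and were at -0.28 and -1.06 with forskolin without passing. Cebpa, the partner of Pparg in fat cells, was at 0.77 ± 0.45 with forskolin and 1.09 ± 0.45 with cAMP and was not called. Of 9 tested enzymes that make or free PPAR ligands, rescaled, 2 were called higher with forskolin, Aloxe3 and Ptgds, and cAMP had Ptgds and Pnpla2 higher and Alox12 and Ptgs1 lower. Ptgs1, a cyclooxygenase, fell by 1.43 with cAMP (adjusted p = 0.0137) and was at -0.93 with forskolin (adjusted p = 0.0903).

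The 250 bases before the starts of the members were searched on both strands for 4 motifs: the full CREB site TGACGTCA, its core TGACG, the PPAR and RXR dimer site (a direct repeat of AGGTCA with 1 base between, known as DR1), and the receptor core AGGTCA; each core is contained in the longer site of its kind. RefSeq (GRCm38.p6) gave 12 such windows for 7 members, and Ppargc1b was not searched. The full CREB site and the dimer site were in none of the 12, where 1.55% and 0.0335% of all 32851 windows held them. The core TGACG was in 3 windows, of Ppara, Rxrb and Ppargc1a, where 17.8% of all windows held it. The Ppargc1a window precedes the start at position 51567725, near that of ENSMUST00000151104, a nonsense-mediated-decay transcript at 0.233 CPM or less in every library, and the stretch before the protein-coding ENSMUST00000132734 was not searched. The core AGGTCA was in 3 windows, those of the upstream Pparg start, of a further Pparg start at position 115362349 and of a Rxra start, where 4607 of the 32851 windows held it. That Rxra start, at position 27709292, is 32030 bases from the nearest start of a listed Rxra transcript. The window before the Rxra start at 27677201 held none of the motifs searched. All finds here are matches of letters in a window and were not tied to binding.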

How the data were processed

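Total epidermis RNA went into stranded mRNA libraries, per the labels' protocols. The submitters' processing notes name bcl2fastq 2.17, STAR and Partek. For the genome build, annotation and settings, none is given in the sources used here. Expression was deposited for 59869 transcripts in CPM, a unit read from the values (column sums of 805255.8 to 947144.3), with a small offset in place of 0. If the offset stood for 0.0001 read, libraries held 34200000 to 51700000 reads. On that scale 59.6% to 75.7% of low gene sums were within 0.1 of a whole read, so whole reads were not recovered and no count model was run. The level of 3 reads is 0.0607 CPM in the control and covers counting error only.

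Values were added up over the transcripts of each gene, without the rows that lack a gene identifier (at most 0.0679% of a library). GENCODE M21 (GRCm38) supplied lengths; it contained 98.3% of the listed transcripts, 90.7% of them at identical coordinates. A gene entered the test when 2 or more libraries reached 1 CPM (13764 genes). The test was limma 3.58.1 (R 4.3.3, trend option) on log2(CPM + 1) of the deposited values, a scale that understates changes of low genes. One 2-sided fit held all 5 libraries in 3 groups, and Benjamini-Hochberg adjustment covered all tested genes, with a threshold of 0.05. The control is a lone library, assumed to vary as the treated ones. With 2 residual degrees of freedom against 360.2 prior ones (15.7 rescaled), the spread of a gene came mostly from the trend over all genes. For rescaling, size factors were 1.42 and 1.31 (forskolin), 1.65 and 1.12 (cAMP) and 0.317 (control), computed over 11512 tested genes exceeding 0.05 CPM in each library. The fit was tested on simulated data.

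Replicate numbers paired no libraries: same-numbered deviations had a correlation of -0.05 as deposited and -0.07 rescaled. The members and lists were chosen with earlier results of these data known. Named genes are all 8 members, up to 6 tested genes of each list in list order, and the closest profiles among genes with a mean of at least 8.84 CPM, the median of tested genes, without predicted or clone names; other named genes are said to be chosen after their values were seen, or complete a count. A few genes of the lists are not reported here.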

Additional observations from a re-analysis of the deposited data

How the results depend on the processing

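Rescaling decided most calls against the control, and the cause of each shift below was not tested. With median-of-ratios scaling 2997 genes and 2 members were called with forskolin, and 3113 genes and 2 members with cAMP. Scaled to nuclear genes, 3076 genes and 2 members were called with forskolin, and 3101 genes and 2 members with cAMP. As deposited these were 9177 genes and 6 members, and 9025 genes and 7 members. Leaving out each treated library as deposited gave 5283 to 10253 genes with forskolin, where the lowest count was without forskolin replicate 1. Leaving each out after median-of-ratios scaling, chosen after the data were seen, gave 2613, 2038, 2958 and 2951 genes and 2 members in every case with forskolin, and 3391, 3383, 2167 and 2208 genes and 1 to 2 members with cAMP (without forskolin replicates 1 and 2 and cAMP replicates 1 and 2, in that order); the member lost was Ppard, without cAMP replicate 1. Pparg stayed higher than the control and past the threshold in each of these fits.

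Forskolin against cAMP gave 52 genes as deposited. It gave 16 with a pseudocount of 0.1, 0 with no filter (967 genes had an unadjusted p under 0.05), 6 with protein-coding transcripts alone (chosen after the data were seen), 11 to 70 without a treated library, and 91, 203, 3 and 0 in the same order after median-of-ratios scaling. No member was called in any of the 18 fits. With the replicate number as a block it gave 55 genes and no member; the numbers do not pair the libraries.

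Members changed sign as follows. With forskolin against control, median-of-ratios scaling gave -0.60 for Ppara and -0.030 for Rxra, and scaling to nuclear genes gave -0.53 for Ppara. Without a treated library, Ppara ranged from -0.35 to 1.85 and Ppargc1a from -0.39 to 0.24 as deposited. After median-of-ratios scaling without forskolin replicate 2, Ppara was at -1.62, Rxra at -0.40 and Ncor1 at -0.033. With cAMP against control, median-of-ratios scaling gave -0.051 for Ppara, -0.12 for Rxrb and -0.12 for Ncor1, and scaling to nuclear genes gave -0.061 for Rxrb and -0.059 for Ncor1. Without a treated library, Ppargc1a ranged from -0.37 to 0.16 as deposited. After median-of-ratios scaling, Rxrb was at -0.31 without cAMP replicate 1, and Ppara was at -0.41 and Ncor1 at -0.33 without cAMP replicate 2. With forskolin against cAMP, Ppargc1a was at -0.0029 with median-of-ratios scaling. Without a treated library as deposited, Ppara ranged from -1.73 to 0.47, Rxra from -0.45 to 0.19 (0.13 without cAMP replicate 1), Rxrb from -0.16 to 0.75, Ppargc1a from -0.28 to 0.34 and Ppargc1b from -0.29 to 0.49. After median-of-ratios scaling without forskolin replicate 1, Ppara was at 0.47 and Rxra at 0.23. Without forskolin replicate 2, Ppargc1a was at -0.30 and Ppargc1b at -0.33, and without cAMP replicate 1 they were at -0.36 and -0.14. None of the reversed values passed the threshold. The lone control limits every comparison with it, and for Ppara, Ppargc1a and Ppargc1b it rests on 55, 63 and 39 reads under the offset reading.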
